A study of Mus musculus with 6 samples.

Results

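Small RNAs of 25 to 31 nt from the genes that encode the proteins of the cytosolic ribosome were read in 6 libraries of spermatogonial stem cells from the mouse, the cells that renew the male germ line, grown in culture. The members were the protein-coding genes of GENCODE M21 whose symbol is Rpl or Rps followed by a number, or Rplp0, Rplp1 or Rplp2, without the Rps6k kinases. They numbered 91 of 21951 protein-coding genes, 57 named for the large subunit and 34 for the small subunit. A read belonged to a member when it matched one of its transcripts exactly, in the sense direction, and matched no annotated small RNA. The match took in 55866 of the 8076097 distinct sequences of 25 to 31 nt. Every member had at least 1 read, and 86 had at least 100 reads in untreated wild type cells, the minimum for a comparison by gene. The other 5 had 61 reads (Rpl10l), 28 (Rpl9-ps1), 26 (Rps19bp1), 12 (Rpl36-ps4) and 1 (Rpl3l) there. Rps19bp1 entered through its symbol and encodes a partner of a ribosomal protein.

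The libraries were a MILI immunoprecipitate from wild type cells, a Mili knockout (mili-/-), a Hen1 knockout (mhen1-/-) with NaIO4, the same knockout untreated, wild type with NaIO4 and wild type untreated. All cells descended from a 15-day-old F1 male of C57BL/6 and DBA2 that carried an actin-EGFP transgene, and they grew on mouse embryonic fibroblast feeders. The knockouts were made with transiently transfected Cas9 and guide RNAs, and single colonies were picked, so a knockout stands for the clone or clones that were sequenced. The strain label reads C57BL/6, and sequences from DBA2 alleles that differ from the reference were not matched. Each group had 1 library, so no difference has a replicate check and no p-value is given. All intervals are 95% and cover counting error only, since PCR copies were not marked by molecular identifiers.

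piRNAs are germ line small RNAs that are carried by Piwi proteins, of which MILI (gene Piwil2) is one, and they mostly begin with U. Their 3′ ends are trimmed and then 2′-O-methylated by Hen1 (gene Henmt1). Most are known for silencing transposons, but spliced mRNAs, ribosomal protein mRNAs among them, are also cut into piRNAs in germ cells. Oxidation with NaIO4 removes RNAs that end in an unmodified ribose from a library, while methylated 3′ ends resist. Many ribosomal protein genes also hold small nucleolar RNAs (snoRNAs), which guide rRNA modification, in their introns.

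The 3 sequences below are each the most abundant one, in untreated wild type, of a Mili-dependent member with many reads, shown because they lie in coding sequence and had no read in the Mili knockout. T stands for U, and the capital marks the first base.
Rps15: Tcctatgagcaactgatgcagctgtacagc
Rpl4: Tgaagaacctgagaatcatgttgaagc
Rpl32: Taagaaccgaaaagccattgtagaaagagc
The Rps15 sequence joins exon 1 to exon 2 of 3 and so exists in the spliced mRNA, with its ends at chr10:80292856-80293666 on the plus strand of GRCm38. The Rpl4 sequence lies in exon 9 of 10 (chr9:64177935-64177961, plus strand). The Rpl32 sequence lies in exon 3 of 3 (chr6:115805623-115805652, minus strand). The Rps15 sequence matched that gene alone, the Rpl4 sequence 2 genes of any kind and the Rpl32 sequence 4.

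In reads per 1000000 reads of 18 to 35 nt (rpm), the Rps15 sequence had 255.7 in the MILI immunoprecipitate, 0 in the Mili knockout, 1.92 in the NaIO4-treated Hen1 knockout, 1.79 in the untreated Hen1 knockout, 110.5 in NaIO4-treated wild type and 66.9 in untreated wild type. The Rpl32 sequence had 516, 0, 9.98, 23.2, 165 and 117 in the same libraries. The Rpl4 sequence had 110.1, 0, 11.1, 30.7, 155 and 73.2. All 3 were highest in the immunoprecipitate or in NaIO4-treated wild type. All 3 were lower in both Hen1 knockout libraries than in untreated wild type, where they were chosen as the leading sequences, which favours this order.

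The other sequences shown are the most abundant ones, in the Mili knockout, of the 2 members that did not fall under the rule for Mili dependence. Both come from introns retained in other transcripts of these genes, and the capitals mark the letters TGATGA, the usual box C of a C/D snoRNA.
Rpl5: tgccaaTGATGAcaccacactaactgagc
Rpl13: tggaaTGATGAcattctccggaatcgctgt
The Rpl5 sequence (chr5:107904554-107904582, plus strand) shares 28 of its 29 nt with the annotated snoRNA Snord21. The Rpl13 sequence (chr8:123103033-123103062, plus strand) shares 25 of its 30 nt with Snord68. They passed the filter on small RNAs because each runs past the annotated end of the snoRNA.

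The Rpl5 sequence had 0.317 rpm in the immunoprecipitate, 405 in the Mili knockout, 13.8 in the NaIO4-treated Hen1 knockout, 88.1 in the untreated Hen1 knockout, 3.89 in NaIO4-treated wild type and 154 in untreated wild type. The Rpl13 sequence had 0.0792, 82.2, 27.6, 10.9, 29.3 and 44.2 in the same order. In rpm both were highest in the Mili knockout, where the 3 mRNA sequences had no read, and lowest in the immunoprecipitate. All 5 sequences were chosen with their Mili knockout reads in view, so the contrast in that library follows in part from the choice.

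Reads of the members made up 3.003% of the reads of 18 to 35 nt in the MILI immunoprecipitate (757867 reads), 0.0869% in the Mili knockout (4178), 0.298% in the NaIO4-treated Hen1 knockout (7753), 1.00% in the untreated Hen1 knockout (117569), 1.86% in NaIO4-treated wild type (191080) and 1.07% in untreated wild type (78118). The libraries held between 2604390 reads (NaIO4-treated Hen1 knockout) and 25240941 reads (immunoprecipitate) of 18 to 35 nt, which set how well low genes are counted. Reads found in a protein-coding transcript of a member and reads found in its other transcripts alone (retained introns and processed transcripts) behaved differently, a split that was chosen after the values were seen. In protein-coding transcripts there were 756471 reads in the immunoprecipitate, 751 in the Mili knockout, 7324 in the NaIO4-treated Hen1 knockout, 115521 in the untreated Hen1 knockout, 189727 in NaIO4-treated wild type and 75511 in untreated wild type. In other transcripts alone there were 1396, 3427, 429, 2048, 1353 and 2607 reads in the same libraries, which was 82.0% of the member reads of the Mili knockout and 3.34% of those of untreated wild type.

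Of the reads in protein-coding transcripts, 86.8% began with U in the immunoprecipitate, 27.3% (24.1 to 30.6) in the Mili knockout, 83.1% in the NaIO4-treated Hen1 knockout, 83.5% in the untreated Hen1 knockout, 83.5% in NaIO4-treated wild type and 81.6% in untreated wild type. The Mili knockout stood apart from the other 5 libraries. Reads in other transcripts alone began with U in 77.9%, 91.5%, 96.3%, 88.2%, 86.3% and 87.5% of cases in the same order, and the Mili knockout was not the lowest among them. In the Mili knockout these 3427 reads were only 71 distinct sequences. The Rpl5 sequence that overlaps Snord21 alone gave 1949 of the reads, so the 91.5% rests on few sequences. The tenth base of the reads in protein-coding transcripts was A in 33.1% in the immunoprecipitate, 29.3% in the Mili knockout and 33.1% in untreated wild type.

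**Figure D1:**
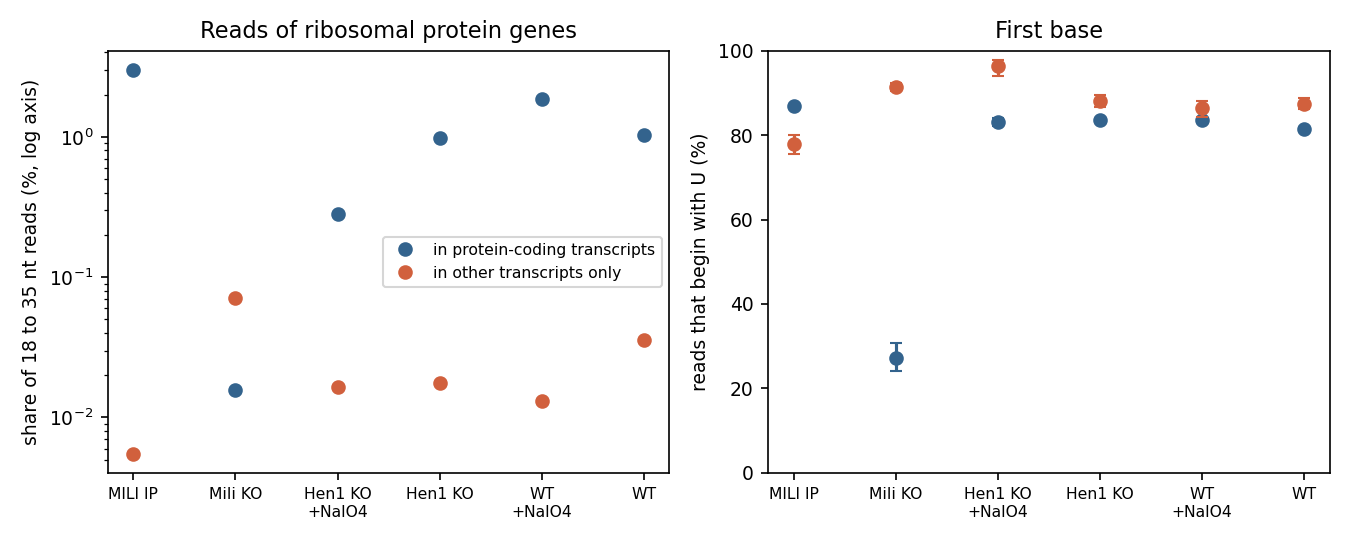
Left, share of the reads of 18 to 35 nt (%, log axis) that came from ribosomal protein genes in each of the 6 libraries, with reads in protein-coding transcripts in blue and reads in other transcripts alone in orange. Right, share of these reads that began with U (%), with 95% exact counting intervals. The Mili knockout is the library in which the orange point lies above the blue one and in which the blue reads begin with U in 27.3% of cases.

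The loss of member reads in the Mili knockout was close to complete for the mRNA-derived reads. In protein-coding transcripts the share was 66.0-fold lower in the Mili knockout than in untreated wild type (61.4 to 70.9), beside 30.7-fold lower for the same reads over all protein-coding genes. By gene the order was the other way, with a median ratio of 0.0193 over the members and 0.0109 over 3522 genes. With all transcripts counted the member share was 12.3-fold lower (11.9 to 12.7). This size depended on the scale: it was 21.8-fold lower per microRNA read and 3.80-fold lower per read of 25 to 31 nt without a small RNA match. With reads of 1 gene alone it was 3.09-fold lower, with each distinct sequence counted once 6.33-fold lower, and without Rpl5 22.3-fold lower. Of the 3606 reads of 1 gene in the Mili knockout, 2037 were from Rpl5 and 1023 from Rpl13. Both genes had the same numbers of reads in other transcripts alone there, so the 3.09-fold does not describe the mRNA-derived reads. Reads in other transcripts alone were 2.00 times as frequent in the Mili knockout as in untreated wild type (1.90 to 2.11). This ratio is given with all reads of 18 to 35 nt as the scale alone. MicroRNAs were 34.0% of these reads in the Mili knockout and 19.2% in untreated wild type, so part of the rise can come from the scale.

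A member was called Mili-dependent where the whole interval of its Mili knockout to wild type ratio lay below 0.5, and Mili-independent where it lay above 0.5. By this rule 84 of 86 members were Mili-dependent, beside 99.1% of the 4300 protein-coding genes with at least 100 wild type reads, and 2 were Mili-independent, beside 0.465%. The share of dependent members was thus near that of all genes. The median ratio was 0.0207 over the members, or 48.3-fold lower in the Mili knockout, and 0.0160 over all genes. Members next to the limit were Rpl13 at 1.36 (1.25 to 1.47) and Rpl5 at 0.549 (0.522 to 0.578) above it, then Rpl7a at 0.194 (0.166 to 0.228), Rpl12 at 0.0950 and Rpl37 at 0.0941 below it.

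Rps15, Rps20 and Rps3 were small subunit members with many wild type reads. Rps15, a protein of the head of the small subunit, had 72671 reads in the immunoprecipitate, 6 in the Mili knockout, 360 in the NaIO4-treated Hen1 knockout, 7286 in the untreated Hen1 knockout, 11926 in NaIO4-treated wild type and 5067 in untreated wild type. Scaled to the libraries, its reads were 555-fold lower in the Mili knockout than in untreated wild type. Rps20 had 36249, 34, 428, 6551, 6274 and 2541 reads in the same order, and was 49.1-fold lower in the Mili knockout. Rps3, which lies at the mRNA entry of the small subunit, had 8 reads in the Mili knockout, against 1720 in untreated wild type, and was 141-fold lower. These 3 differed among themselves in what the Mili knockout kept, and the highest ratio to wild type among them was that of Rps20 at 0.0204 (0.0145 to 0.0286).

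Large subunit members with many wild type reads were Rpl4, Rpl32, Rpl19, Rplp1, Rpl35a, Rpl12 and Rpl5. Rpl4, whose loop lines the exit tunnel of the ribosome, had 48059 reads in the immunoprecipitate, 133 in the Mili knockout, 357 in the NaIO4-treated Hen1 knockout, 5197 in the untreated Hen1 knockout, 10686 in NaIO4-treated wild type and 4304 in untreated wild type. Of its 133 reads in the Mili knockout, 81 were in other transcripts alone, among them reads that overlap Snord16a. Rpl32 had 37195, 8, 454, 4530, 9328 and 3869 reads in the same order, and was 318-fold lower in the Mili knockout than in untreated wild type. Rpl19 was 379-fold lower in the Mili knockout (4 reads, against 2306), Rplp1, an acidic protein of the stalk that recruits translation factors, 62.3-fold lower (22, against 2089) and Rpl35a 59.0-fold lower (22, against 1978). Rpl12, at the base of the stalk, was 10.5-fold lower (107, against 1715), and 95 of the 107 reads were in other transcripts alone, among them reads that overlap Snora65.

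The lowest ratios belonged to 10 members with no read in the Mili knockout. With reads in protein-coding transcripts alone there were 11 such members of 86, beside 31.5% of 3522 genes. A count of 0 allows 3 reads at most. Against that floor, Rpl24 was at least 191-fold lower in the Mili knockout than in untreated wild type (0 reads, against 872). The bounds were lower for Rpl38 (at least 97.0-fold), Rpl36a (67.6-fold), the X-linked Rps4x (65.0-fold), Rpl36al (51.4-fold), Rps27l (44.2-fold), Rpl39l (36.8-fold), Rpl36 (27.4-fold) and Rpl36a-ps1 (23.2-fold), following their wild type reads. Rpl36al, Rps27l and Rpl39l are copies of Rpl36a, Rps27 and Rpl39, and Rpl39l is known for its use in male germ cells.

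Rpl5, the large subunit protein that carries 5S rRNA, had 31655 reads in the immunoprecipitate, 2043 in the Mili knockout, 326 in the NaIO4-treated Hen1 knockout, 6024 in the untreated Hen1 knockout, 11431 in NaIO4-treated wild type and 5665 in untreated wild type. Of these, 22, 2037, 39, 1073, 52 and 1205 reads were in other transcripts alone. The 2037 reads made up nearly all Rpl5 reads of the Mili knockout, while the protein-coding transcripts gave 6 reads there, against 4460 in untreated wild type, and were 488-fold lower. Rpl13, another large subunit protein, had 3991, 1034, 372, 920, 1627 and 1162 reads in the same libraries, of which 14, 1023, 351, 535, 813 and 847 were in other transcripts alone. Its protein-coding transcripts gave 11 reads in the Mili knockout, against 315 in untreated wild type, and were 18.8-fold lower. Rpl7a, the member nearest below the limit, had 171 reads in the Mili knockout, against 1339 in untreated wild type, and 157 of the 171 were in other transcripts alone.

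With reads in protein-coding transcripts alone, 86 of 86 members were Mili-dependent, beside 99.2% of 3522 genes, and 0 were Mili-independent, beside 0.483%. The highest ratio was then 0.0941 (Rpl37) and the median 0.0193, beside a median of 0.0109 over the 3522 genes. Of the member reads in other transcripts alone, 3.22% overlapped an annotated small RNA in the immunoprecipitate, 94.7% in the Mili knockout, 92.1% in the NaIO4-treated Hen1 knockout, 81.4% in the untreated Hen1 knockout, 67.2% in NaIO4-treated wild type and 83.0% in untreated wild type. The letters TGATGA, searched on the read's own strand, were in 1.79% of these reads in the immunoprecipitate, 89.4% in the Mili knockout and 78.6% in untreated wild type, beside 2.06%, 2.26% and 1.86% of the reads in protein-coding transcripts. A match to these letters is a description and no proof of a snoRNA. Reads that match an annotated small RNA in full had been left out, 5663 of them in the Mili knockout and 11457 in untreated wild type.

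**Figure D2:**
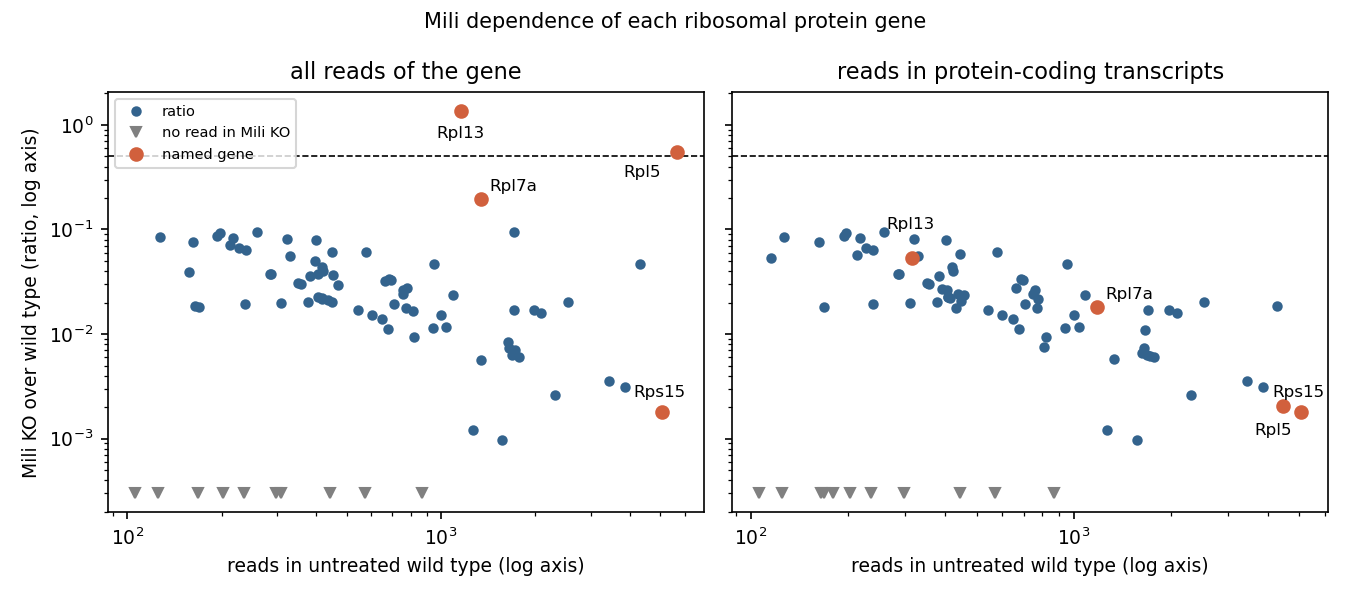
Ratio of the Mili knockout share to the untreated wild type share (log axis) against the number of untreated wild type reads (log axis) for each member with at least 100 of them, from all reads of the gene (left) and from reads in protein-coding transcripts (right). Named genes are in orange, grey triangles at the foot are members with no read in the Mili knockout, and the dashed line is the limit of 0.5. Rpl13 and Rpl5 lie above the line on the left and among the other members on the right.

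The 751 reads that the Mili knockout kept in protein-coding transcripts had 293 distinct sequences. Their lengths had no peak at 27 nt: 12.6% were 27 nt and 18.5% were 28 nt long, against 22.0% and 20.8% in untreated wild type. The most abundant came from Rps25, a small subunit protein named after its values were seen, and is shown because it begins with G, marked by the capital.
Rps25: Gcgacatacgacaagctctgtaaggaggt
It lies in exon 3 of 5 (chr9:44408743-44408771, plus strand) and had 2 reads in the immunoprecipitate, 9 in the Mili knockout, 1 in the untreated Hen1 knockout and 0 in the other 3 libraries.

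The immunoprecipitate, made with a commercial antibody, addressed which of these reads MILI carried. It, both untreated knockouts and NaIO4-treated wild type were set against the same untreated wild type library. The member share was 2.81 times that of untreated wild type (2.79 to 2.84), beside 2.19 times for all protein-coding genes. MicroRNAs were 0.847% of the reads of 18 to 35 nt in the immunoprecipitate and 19.2% in untreated wild type, which enters every share. Set against the reads of 25 to 31 nt that matched no small RNA, the ratio was 1.61, per microRNA read it was 63.7, and with each distinct sequence counted once it was reversed at 0.640. By gene, 74 of 86 members were at least 2-fold higher in the immunoprecipitate, beside 47.8% of 4300 genes, with a median ratio of 2.63 over the members and 1.96 over all genes. Per read of 25 to 31 nt without a small RNA match, 10 were 2-fold higher, beside 4.77%, and the medians were 1.51 and 1.12. The member reads in other transcripts alone were 0.155 of their wild type share (0.146 to 0.166).

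Ratios to untreated wild type ranged from 0.996 for Rpl13 to 4.32 for Rpl28, a large subunit protein named here after its value was seen. Rps15 followed at 4.16 (4.04 to 4.28) and Rps20 at 4.14 (3.98 to 4.31). Rpl5 was at 1.62 (1.58 to 1.67), or 2.06 from its protein-coding transcripts, and Rpl13 was at 3.66 (3.27 to 4.11) from its own. Per kb of the longest protein-coding transcript, Rps15 led with 5033 rpm in the immunoprecipitate, against 1210 in untreated wild type. Rplp1 had 2320 in the immunoprecipitate, against 572 in untreated wild type. Also high were Rpl32 (1626, against 583) and Rpl4 (1238, against 378). Small subunit members as a whole were at 3.23 times their wild type share (3.19 to 3.27) and large subunit members at 2.57 times (2.55 to 2.60). The medians by gene were closer, 2.75 over 33 small subunit members and 2.52 over 53 large subunit members.

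The most abundant sequences of the immunoprecipitate were not always those of untreated wild type. The 2 shown here, again with the first base in capitals, led the members in the immunoprecipitate for Rps15 and Rpl4.
Rps15: Tacaaacccgtgaagcacggccggccc
Rpl4: Tgagaaaccgacggcggatccagcgc
The Rps15 sequence (exon 3 of 3, chr10:80294009-80294035, plus strand) had 509.7 rpm in the immunoprecipitate, 0 in the Mili knockout, 11.9 in the NaIO4-treated Hen1 knockout, 62.0 in the untreated Hen1 knockout, 37.9 in NaIO4-treated wild type and 33.9 in untreated wild type. It was 15.1 times as frequent in the immunoprecipitate as in untreated wild type (13.3 to 17.1), and the Rps15 sequence shown first was 3.82 times as frequent (3.49 to 4.19). The Rpl4 sequence (exon 6 of 10, chr9:64176981-64177006, plus strand) was 14.1 times as frequent in the immunoprecipitate (12.1 to 16.5), and the first Rpl4 sequence 1.50 times (1.37 to 1.65). The sequences were chosen as the leading ones of these 2 libraries, so that the gap between their ratios follows from the choice.

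**Figure D3:**
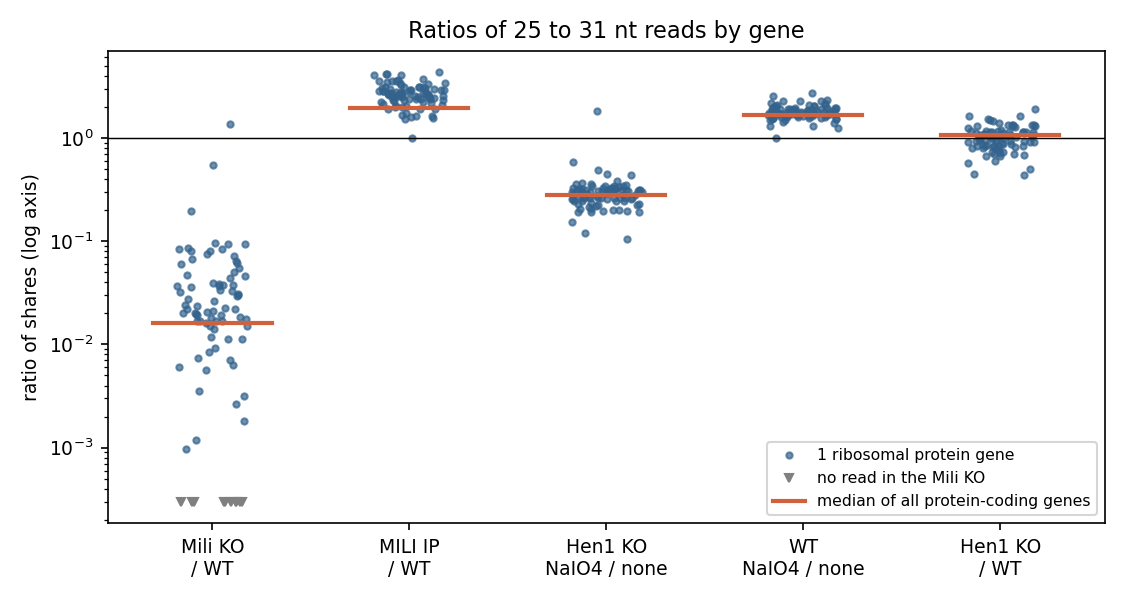
Ratio of shares (log axis) for each member with at least 100 reads in the library below the line of the ratio, for 5 comparisons, with 1 point per gene. Orange lines are medians over all protein-coding genes that meet the same minimum, and grey triangles are members with no read in the Mili knockout. The members lie around the median of all genes in the Hen1 and NaIO4 comparisons, and above it in most cases in the immunoprecipitate.

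NaIO4 was used to find reads with a protected 3′ end. In wild type the member share with NaIO4 was 1.74 times that without (1.73 to 1.76), beside 1.81 times for all protein-coding genes. By gene, 85 of 86 members had a ratio above 1, beside 94.8% of 4300 genes, and 14 were at least 2-fold higher, beside 16.3%. The median was 1.77 over the members and 1.67 over all genes. Per read of 25 to 31 nt without a small RNA match the member share was at 1.12, 73 members were above 1, beside 63.1%, and 0 were 2-fold higher. Per microRNA read it was at 22.7, and with each distinct sequence counted once at 0.986. The member with a ratio below 1, with all reads as the scale, was Rpl13 at 0.997 (0.925 to 1.08), and its reads in protein-coding transcripts had a ratio of 1.84 (1.62 to 2.10). The highest was Rpl14 at 2.70 (2.22 to 3.28), a large subunit protein named after its value was seen.

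In the Hen1 knockout the share was lower with NaIO4. The member share with NaIO4 was 3.37-fold lower than without (3.30 to 3.45), beside 3.42-fold lower for all protein-coding genes. By gene, 84 of 86 members were at least 2-fold lower with NaIO4, beside 91.2% of 5821 genes that reach 100 reads without NaIO4, and the median ratio was 0.290 over the members and 0.282 over all genes. Most members did not keep a 2-fold difference on the other scales. The reads that make up these scales were themselves a lower share of the library with NaIO4. MicroRNAs were 2.57% of the reads of 18 to 35 nt in the Hen1 knockout with NaIO4, against 7.33% without. Reads of 25 to 31 nt without a small RNA match were 23.5%, against 59.7%. A change that the members share with such a scale cancels in the ratio, and which scale stays stable under NaIO4 was not tested. Per microRNA read the member share was 1.18-fold lower and 3 members were at least 2-fold lower, beside 13.9%, and per read of 25 to 31 nt without a small RNA match it was 1.33-fold lower with 8 such members, beside 18.7%. With each distinct sequence counted once the ratio was 1.02. The 2 members outside with all reads as the scale were Rpl11, which binds 5S rRNA with Rpl5, at 0.585 and Rpl13 at 1.82 (1.61 to 2.05). Rpl13 reads in protein-coding transcripts had a ratio of 0.245 (0.158 to 0.380) there, and its snoRNA-overlapping sequence shown above had a ratio of 2.53 (1.89 to 3.37). Rpl5, with its snoRNA, was at 0.243 (0.218 to 0.272). The 2 snoRNA-overlapping sequences differed also in wild type, where the NaIO4 ratio was 0.0252 (0.0184 to 0.0345) for the Rpl5 sequence and 0.662 (0.566 to 0.774) for the Rpl13 sequence.

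Without NaIO4, the member share of the Hen1 knockout was 0.942 of that of wild type (0.933 to 0.950), beside 1.24 for all protein-coding genes. This direction depended on the scale: it was 2.46 per microRNA read and 0.667 per read of 25 to 31 nt without a small RNA match. MicroRNAs were 7.33% of the reads of 18 to 35 nt in the untreated Hen1 knockout and 19.2% in untreated wild type. By gene, 45 of 86 members were above 1, beside 56.3% of 4300 genes, and 41 below 1, beside 43.7%, while per microRNA read 86 were above 1, beside 97.5%, and per read of 25 to 31 nt without a small RNA match 80 were below 1, beside 73.6%. The median ratio was 1.01. At least 2-fold lower were 3 members, beside 6.63%: Rpl7a (0.441), Rpl35 (0.442) and Rpl13 (0.495). None was 2-fold higher, beside 7.02%, and the highest was Rpl23a at 1.89 (1.63 to 2.20). Rpl35, Rpl23a and Rpl11 were named after their values were seen.

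The 3′ ends of the member reads differed in the Hen1 knockout. The mean length of the reads was lower in the untreated Hen1 knockout than in untreated wild type for 86 of 86 members, beside 98% of 4202 genes, with a median difference of -0.966 nt over the members and -0.902 nt over all genes. At the 534 5′ ends with at least 20 reads in both libraries, reads were shorter in the Hen1 knockout at 508 and longer at 26, with a median difference of -0.818 nt. The mean over these ends was 27.0 nt in the untreated Hen1 knockout and 28.1 nt in untreated wild type. At 650 such ends shared by wild type with NaIO4 and untreated wild type, the median difference was 0.00331 nt, and at 674 shared by the immunoprecipitate and untreated wild type it was 0.00326 nt. The shift in length against the Hen1 knockout was thus far larger than those between the wild type libraries. The first Rps15 sequence, of 30 nt, was at 0.0268 of its wild type share in the untreated Hen1 knockout (0.0173 to 0.0415). The Rpl32 sequence, also of 30 nt, was at 0.199 (0.174 to 0.228), while all reads of these genes were at 0.900 and 0.733. The Rps15 sequence of 27 nt that led the immunoprecipitate was at 1.83 (1.59 to 2.12). The shown Rpl4 sequences of 27 and 26 nt were lower, at 0.419 and 0.425. Such ratios also follow the use of each 5′ end and do not measure length alone. The first Rps15, first Rpl4 and Rpl32 sequences were chosen as the leading ones of untreated wild type. Low ratios to that library thus follow in part from the choice. The end of that 27 nt Rps15 sequence held 9.66% of Rps15 reads in untreated wild type and 16.0% in the untreated Hen1 knockout.

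Among reads in protein-coding transcripts, 26.8% were 26 nt and 9.0% were 29 nt long in the untreated Hen1 knockout, against 13.4% and 16.7% in untreated wild type. At 25 nt, the low edge of the window, these libraries had 15.6% and 5.4%. Shorter reads were not counted, so neither the shares nor the length differences cover them. With NaIO4 the Hen1 knockout had 26.1% and 8.3% at these lengths, and wild type 13.3% and 16.3%.

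**Figure D4:**
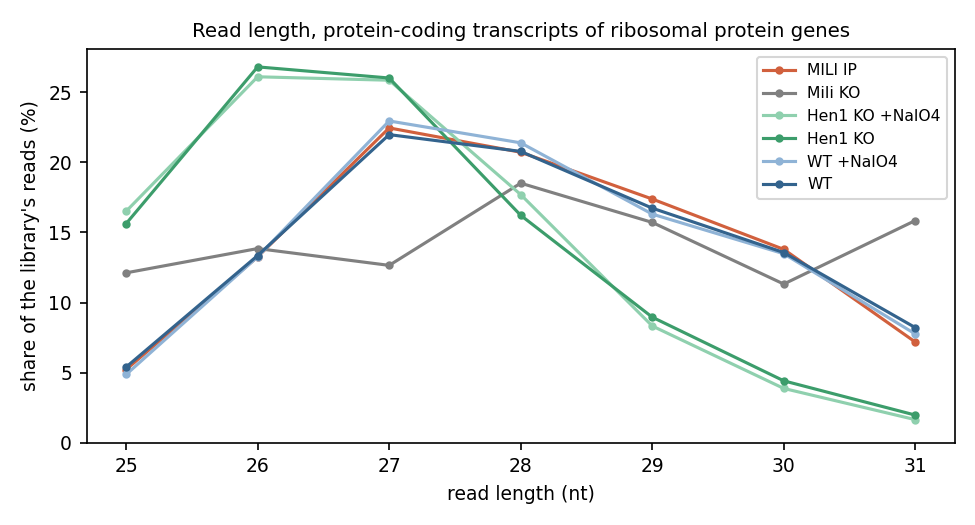
Share of the reads in protein-coding transcripts of ribosomal protein genes (%) at each read length (nt) in the 6 libraries. Both Hen1 knockout libraries peak at 26 nt, the immunoprecipitate and both wild type libraries at 27 nt, and the 751 reads of the Mili knockout spread over all lengths.

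Some reads matched a member up to their last base and then carried 1 base that the transcript does not hold. As a share of exact reads and such reads together, they were 3.91% in the immunoprecipitate, 1.83% (1.00 to 3.05) in the Mili knockout, 13.9% (13.2 to 14.7) in the NaIO4-treated Hen1 knockout, 15.3% (15.1 to 15.5) in the untreated Hen1 knockout, 4.37% in NaIO4-treated wild type and 4.95% (4.80 to 5.11) in untreated wild type. The extra base was U in 3.09%, 1.83%, 9.86%, 11.0%, 3.41% and 3.77% of the reads in the same order, and A in 0.493%, 0%, 3.66%, 3.87%, 0.714% and 0.891%. Both bases were more frequent in the 2 Hen1 knockout libraries than in the other 4. Added bases, sequencing errors and alleles that differ from the reference cannot be told apart in these counts.

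The reads came mainly from the coding part of the mRNA. On the longest protein-coding transcript of each gene, 90.6% of the reads had their middle in coding sequence in the immunoprecipitate, 75.8% in the Mili knockout, 90.5% in the untreated Hen1 knockout and 90.0% in untreated wild type, while coding sequence made up 47.1% of the length of these transcripts. With the principal transcript of the annotation, for 85 genes, the shares were 93.8%, 81.1%, 94.2% and 93.5%, and coding sequence was 63.8% of the length. The 3′ UTR gave 5.05% in the immunoprecipitate and 6.46% in untreated wild type and was 34.7% of the length of the longest transcripts. A junction of 2 exons lay inside 18.3% of the reads in the immunoprecipitate and 18.3% in untreated wild type. Members of the 5′ TOP class, to which ribosomal protein mRNAs belong, start with a run of pyrimidines. Reads that began in the first 5 nt of a transcript were 0.0604% in the immunoprecipitate and 0.0609% in untreated wild type. In the Mili knockout they were 0.932%, a share that rests on few of its 751 reads. The base after the 3′ end was U in 20.4% of the reads in the immunoprecipitate and 21.8% in untreated wild type, beside 23.9% over the transcripts themselves.

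**Figure D5:**
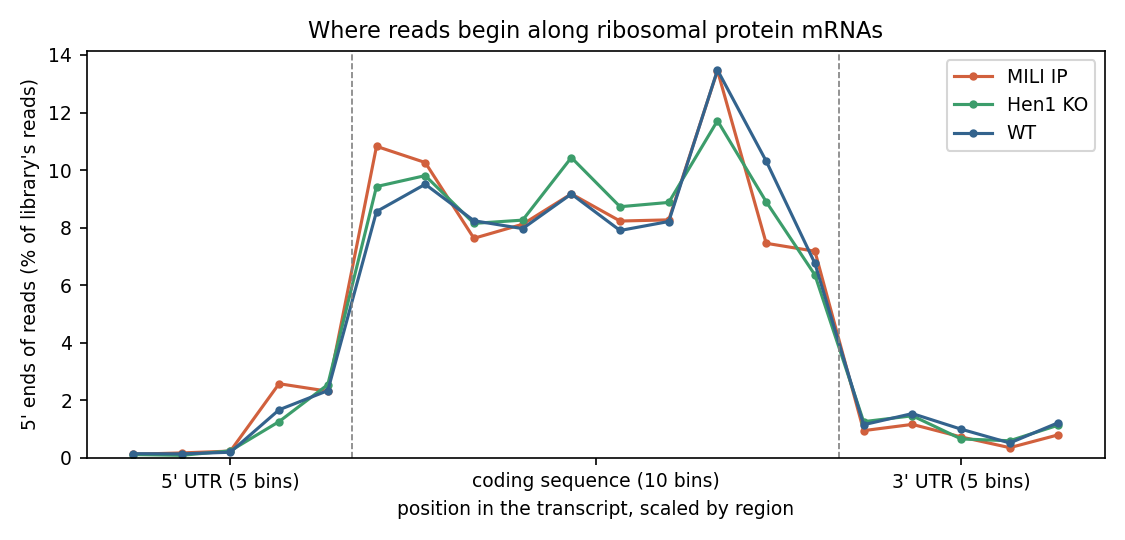
Share of the 5′ ends of member reads (% of the library's reads in protein-coding transcripts) along the longest protein-coding transcript, with the 5′ UTR in 5 bins, the coding sequence in 10 and the 3′ UTR in 5, for the immunoprecipitate, the untreated Hen1 knockout and untreated wild type. The 3 lines are high between the dashed lines that bound the coding sequence and low on both sides.

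Within a gene the reads piled up on few 5′ ends. In untreated wild type the leading 5′ end held a median of 15.6% of a member's reads, from 6.77% to 59.5%, and the leading 5 ends a median of 44.5%. The middle of a 28 nt read from this end lay in coding sequence in 75 of 86 members, in the 3′ UTR in 9 and in the 5′ UTR in 2, and for the leading end of the immunoprecipitate these numbers were 80, 4 and 2. The leading end was the same position in the immunoprecipitate as in untreated wild type for 51 of 86 members, in NaIO4-treated wild type for 62 and in the untreated Hen1 knockout for 40. Rpl32 was among the most uneven: 1 position, the start of its sequence shown above, held 54.0% of its reads in the immunoprecipitate, 61.9% in the NaIO4-treated Hen1 knockout, 47.6% in the untreated Hen1 knockout, 44.0% in NaIO4-treated wild type and 48.8% in untreated wild type. Rpl5 was more even in the Hen1 knockout: the position that led in the immunoprecipitate with 31.3% held 9.92% in the untreated Hen1 knockout and 17.9% in untreated wild type.

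Most member reads could not be given to 1 gene. Reads that matched a pseudogene as well made up 75.0% of the member reads in the immunoprecipitate, 12.4% in the Mili knockout, 76.4% in the untreated Hen1 knockout and 74.1% in untreated wild type, and reads that matched 1 gene of any kind made up 21.1%, 86.3%, 20.1% and 21.7%. A processed pseudogene and its parent mRNA cannot be told apart by such reads. With 1-gene reads alone, 32 members were Mili-dependent and 3 Mili-independent, Rpl13, Rpl5 and Rpl7a. Fewer members reached the minimum number of wild type reads this way than with all reads. The matching share over all protein-coding genes was not derived for 1-gene reads. These numbers thus show neither a loss of Mili dependence nor a difference of the members from genes in general. Rpl9 and its copy Rpl9-ps6 had 3894 and 3707 reads in the immunoprecipitate, and 42.2% of Rpl9 reads and 40.0% of Rpl9-ps6 reads began with U in the immunoprecipitate, where the median Mili-dependent member had 86.8%. Both were named after their values were seen.

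Reads antisense to the members were few. They numbered 4509 in the immunoprecipitate, 9 in the Mili knockout, 174 in the NaIO4-treated Hen1 knockout, 2434 in the untreated Hen1 knockout, 888 in NaIO4-treated wild type and 567 in untreated wild type, which was 0.595%, 0.215%, 2.24%, 2.07%, 0.465% and 0.726% of the sense reads. Most also matched another gene in the sense direction, and 855, 3, 22, 258, 234 and 169 did not. Rps24, named after its values were seen, gave the most, with 2780 in the immunoprecipitate, 0 in the Mili knockout and 197 in untreated wild type. When piRNAs are made in pairs from both strands, their 5′ ends overlap by 10 nt. Read pairs with this overlap, counted by the rarer read of each pair, numbered 558 in the immunoprecipitate, where the other overlaps of 1 to 20 nt had a median of 325 and a highest value of 434, and 106 in untreated wild type, where the others had a median of 39 and a highest value of 62. In the Mili knockout there were 0 such pairs at every overlap from 1 to 20 nt. A read can match several members, and pairs were counted in each.

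Other genes of the translation machinery were read in the same way. Of 78 mitochondrial ribosomal protein genes, 29 had at least 100 wild type reads and all 29 were Mili-dependent, and of 20 other genes with 5′ TOP mRNAs, 17 had that many and all 17 were Mili-dependent, beside 99.1% of all 4300 genes. The mitochondrial list as a whole was at 3.67 times its wild type share in the immunoprecipitate, with a median of 2.18 over the 29 genes. Mrps26 (575107 reads in the immunoprecipitate) and Mrps14 (541220), named after their values were seen, shared 518899 reads that matched both, and 85.2% of the reads of the list in the immunoprecipitate matched 1 or both. The 5′ TOP list was 21.7-fold lower in the Mili knockout and at 2.69 times in the immunoprecipitate. Rpsa, a small subunit protein that falls outside the symbol rule and was named after its values were seen, had 10643 reads in the immunoprecipitate, 11 in the Mili knockout and 989 in untreated wild type.

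Feeder fibroblasts also express ribosomal protein genes. Their 6 marker microRNAs were all detected in every library and made up 1.72% of the microRNA reads in the immunoprecipitate, 1.30% in the Mili knockout, 1.93% in the NaIO4-treated Hen1 knockout, 1.99% in the untreated Hen1 knockout, 0.649% in NaIO4-treated wild type and 0.789% in untreated wild type. Of 10 germ line stem cell microRNA genes 9 were detected in every library, with Mir292a at 0, and made up 19.3%, 39.5%, 29.2%, 35.4%, 25.2% and 38.8%. The feeder share of both knockouts was above that of untreated wild type, and its part in the differences was not tested.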

How the data were processed

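Each deposited file lists distinct sequences with a read count, which the authors made by collapsing identical reads without scaling. Per the submitters' processing notes, Bowtie and build mm10 were used. How adapters were trimmed and lengths filtered is not given in the sources used here. The labels name a spike-in for 5 libraries, which was not used here, so no absolute amounts were derived.

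Sequences of 25 to 31 nt were matched exactly, on both strands, to all transcripts of GENCODE M21 (GRCm38) with numba 0.67.0 in Python 3.11.15. No genome sequence was used. Reads with a sense match to a small RNA biotype or to the rRNA-holding transcripts Gm42418, Gm26917, CT010467.1 and AY036118 were dropped. In the member total each read counted once, and by gene it counted in every gene that it matched. Counts were divided by all reads of 18 to 35 nt. Shares have exact binomial intervals, and ratios have intervals from the counts on the log scale (numpy 2.4.6, pandas 2.3.3, scipy 1.17.1). The library microRNA totals leave out Mir5099. Matching, intervals and the class rule were tested on simulated data. Figures used matplotlib 3.10.9.

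Members, lists and rules were chosen with earlier results of these data known. The genes named were the 12 members with the most untreated wild type reads, the 6 lowest (with ties) and 6 highest Mili knockout to wild type ratios, and the 6 with the most immunoprecipitate reads per kb. Exceptions are marked in the text, and a few genes that meet the rule are not reported here. Alternatives were the scale, distinct sequences, 1-gene reads, the length window, the limits of the class rule, the symbols, leaving out Rpl5 and, added after the data were seen, protein-coding transcripts alone.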

Additional observations from a re-analysis of the deposited data

Results flagged for a closer look

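The NaIO4 ratio of the member reads was 0.296 in the Hen1 knockout and 1.74 in wild type, so that the Hen1 knockout ratio was 0.170 of the wild type ratio. It stood out because the ratios lie on opposite sides of 1. With 1 library per group the difference was not tested.

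Rpl13 stood out against the other members in the same contrast. Its NaIO4 ratio was 1.82 in the Hen1 knockout and 0.997 in wild type, and the first was 1.82 times the second. This difference was not tested either.

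The antisense reads, which no comparison by gene used, reached 4509 in the immunoprecipitate and 567 in untreated wild type. They stood out because they lie above what a count of 0 allows.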

How the results depend on the processing

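With 1 library per group there is no replicate error, and the intervals cover counting error only. Each result is given below for the Mili knockout, the immunoprecipitate, NaIO4 in wild type, NaIO4 in the Hen1 knockout, and the Hen1 knockout against wild type, in that order. The ratios were 0.0459, 63.7, 22.7, 0.846 and 2.46 per microRNA read, the last reversed. They were 0.263, 1.61, 1.12, 0.753 and 0.667 per read of 25 to 31 nt without a small RNA match. With each distinct sequence counted once they were 0.158, 0.640, 0.986, 1.02 and 0.651, and the second, the third and the fourth were reversed. Distinct sequences grow with depth, which differs between the libraries. With reads of 1 gene they were 0.323, 2.73, 1.64, 0.339 and 0.872. At 26 to 30 nt the immunoprecipitate was at 2.85, NaIO4 in wild type at 1.76 and the Hen1 knockout at 0.898. Without Rpl5 the ratios were 0.0449, 2.91, 1.77, 0.299 and 0.963, and with protein-coding transcripts alone 0.0151, 2.91, 1.79, 0.285 and 0.957. The ratios that are not given here moved by less than their counting interval.

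Mili-dependent members numbered 84, against 34 with distinct sequences, 32 with reads of 1 gene and 41 with at least 500 wild type reads. Fewer members reached the minimum with reads of 1 gene or at 500 reads. Distinct sequences of the members were also fewer than their reads, 10705 against 78118 in untreated wild type, so the 34 rests on smaller counts. The 34, the 32 and the 41 are thus not by themselves a loss of Mili dependence. The other alternatives gave 74 to 87. Mili-independent members numbered 2, against 1 (Rpl13) per microRNA read, 0 with distinct sequences and 0 with protein-coding transcripts alone. Per read of 25 to 31 nt without a small RNA match and with reads of 1 gene, Rpl7a joined Rpl5 and Rpl13. No paired analysis was possible because each group had 1 library.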
